A study of Mus musculus with 6 samples.

Results

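The contractile machinery of striated muscle was followed through 6 RNA sequencing libraries of mouse inguinal white adipose tissue, a fat depot under the skin of the groin (iWAT). The genes were chosen by name: protein-coding genes for numbered myosin heavy and light chains, troponins, alpha-actinins 2 and 3, myomesins, myozenins, myosin-binding proteins C and calsequestrins, together with Ttn, Neb, Acta1, Ckm and Tcap. Nonmuscle and smooth muscle myosins of the same naming (Myh9, Myh10, Myh14, Myl6, Myl9, Myl12a and Myl12b) were left out. This gave 45 of the 54532 genes in the deposited table. The name rule uses no measured value, but this gene family was taken up because earlier results of these libraries were known, so the levels below are descriptions. The libraries came from estrogen-treated mice (3) and vehicle-treated mice (3), all described as old and all kept in the cold for 7 days. The sources used here do not give strain, sex, exact age or estrogen dose, nor whether each library is a separate animal. Mice of both groups were cold-exposed, so nothing here bears on cold itself. The series asks how estrogen acts on beige adipocytes, the heat-producing fat cells that cold induces in white fat.

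A muscle fibre contracts when myosin heavy chains of the thick filament pull on actin of the thin filament, with troponin as the calcium switch. The filaments are anchored at the Z disc by alpha-actinin and held at the M band by myomesin, and titin and nebulin act as molecular rulers. Fast and slow fibres use different genes for many of these parts. Among mouse limb and trunk fibres, Myh4 marks type IIB, Myh1 type IIX, Myh2 type IIA and Myh7 type I, the slow type, and IIB is the fastest. Sarcomeres are a feature of striated muscle and not of adipocytes.

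The promoters of 4 members are shown because these genes span the pattern described below: Acta1 (skeletal actin), Myh4 and Myh1 were far higher in 1 library than in the others, and Myl6b, a myosin light chain also made outside striated muscle, was nearly level. Each runs 5′ to 3′ from 250 bases before the RefSeq gene start to 50 bases into the gene (GRCm38.p6). Acta1 lies at chr8:123894726-123895025 on the minus strand, Myh4 at chr11:67237562-67237861 and Myh1 at chr11:67199852-67200151 on the plus strand, and Myl6b at chr10:128498636-128498935 on the minus strand. Capitals mark matches to the E-box (CANNTG, the sequence MyoD-family factors bind), the MEF2 site, the CArG box of serum response factor and the TATA box (TATAAA), searched on both strands.
Acta1: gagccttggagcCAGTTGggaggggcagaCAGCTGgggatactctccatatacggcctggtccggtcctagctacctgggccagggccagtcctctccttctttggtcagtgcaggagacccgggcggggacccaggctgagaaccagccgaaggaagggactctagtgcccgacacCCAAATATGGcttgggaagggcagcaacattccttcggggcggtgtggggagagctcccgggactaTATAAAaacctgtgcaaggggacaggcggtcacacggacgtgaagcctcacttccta
Myh4: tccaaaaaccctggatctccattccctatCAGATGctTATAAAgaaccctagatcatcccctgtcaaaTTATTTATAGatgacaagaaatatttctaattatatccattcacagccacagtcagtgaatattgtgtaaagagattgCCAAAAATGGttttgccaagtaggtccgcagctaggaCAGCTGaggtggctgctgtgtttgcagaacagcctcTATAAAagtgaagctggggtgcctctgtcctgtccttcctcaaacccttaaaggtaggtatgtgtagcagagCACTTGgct
Myh1: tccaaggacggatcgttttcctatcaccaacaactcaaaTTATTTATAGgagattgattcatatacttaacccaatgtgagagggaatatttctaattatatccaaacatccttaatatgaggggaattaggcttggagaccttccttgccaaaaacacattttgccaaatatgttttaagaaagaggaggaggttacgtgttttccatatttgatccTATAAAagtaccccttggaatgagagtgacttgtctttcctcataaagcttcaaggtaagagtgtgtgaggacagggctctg
Myl6b: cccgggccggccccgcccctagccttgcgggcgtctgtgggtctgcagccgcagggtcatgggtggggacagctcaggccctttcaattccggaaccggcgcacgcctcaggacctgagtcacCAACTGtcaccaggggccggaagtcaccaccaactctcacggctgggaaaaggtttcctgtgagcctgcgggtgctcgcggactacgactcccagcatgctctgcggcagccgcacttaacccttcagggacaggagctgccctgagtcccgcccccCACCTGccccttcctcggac
Myh4 and Myh1 held the same MEF2 match, TTATTTATAG, starting at -182 and -211 from the RefSeq gene start, and a TATA box starting at -31 and -32. Inside that MEF2 match lies a TATA box match on the other strand in both genes, so these 2 matches overlap. Acta1 and Myh4 held CArG matches starting at -73 and -104. Myl6b held E-boxes alone. Of the 45 members, 36 had a RefSeq promoter, and 9 of these 36 held a MEF2 match and 6 a CArG match, against 3.19% and 1.63% of 32851 promoters of the same length. A TATA box was found in 11 of 36 members (13.6% of all promoters) and an E-box in 33 of 36 (72.3% of all promoters). MEF2 matches stood in 4 of the 17 promoters of members at least 5-fold higher in 1 library and in 5 of the 19 others. A letter match is not evidence of binding.

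Depth was even, with 19263623, 16046601 and 16473388 total counts in estrogen replicates 1, 2 and 3 and 19014779 to 20736771 in the vehicle libraries. Levels are given as CPM, which is a gene's count relative to its library total after correction by TMM factors (trimmed mean of M values). The detection floor of 3 counts equals 0.130 to 0.209 CPM. Adipocyte markers such as Adipoq and Plin1 summed to 38459, 38294 and 64754 CPM in estrogen replicates 1, 2 and 3 and to 32555, 26397 and 38096 CPM in vehicle replicates 1, 2 and 3. Each library thus held adipocyte RNA, which does not tell which fat depot it came from. In bulk tissue, fewer cells of a type and less RNA per cell cannot be told apart.

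Estrogen replicate 1 stood apart from the other 5 libraries in sarcomere genes. The 45 members took 203710 counts there, 1.06% of the library (Wilson 95% interval 1.05 to 1.06%, counting error only). They took 0.0125% and 0.0112% in estrogen replicates 2 and 3 and 0.0101%, 0.0126% and 0.0237% in vehicle replicates 1, 2 and 3. As summed CPM, these were 10559.0, 132 and 129 with estrogen and 98.4, 121 and 213 with vehicle. The group means were 3606 ± 6021 CPM with estrogen and 144 ± 60.7 CPM with vehicle (n = 3 each, ± SD), so the estrogen spread exceeded its own mean. Estrogen replicate 1 was the highest library for 36 of 45 members.

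In 25 members, estrogen replicate 1 was at least 5-fold above every other library, with the others set to no less than the 3-count floor. Among the 15591 genes that passed the low-count filter, 73 (0.468%) met that bar, 14 of them members of the 22 that passed. The other 11 failed the filter because their counts in the other libraries were too low. The same bar was met by 2 genes in estrogen replicate 2, 3 in estrogen replicate 3, 16 in vehicle replicate 1, 6 in vehicle replicate 2 and 0 in vehicle replicate 3, and no member was among them. Just inside the bar were Tnnt1 (5.60-fold) and Myl1 (7.34-fold), and just outside it Myl3 (3.41-fold) and Tnnt2 (2.73-fold). These 25 genes summed to 10474.0, 62.5 and 44.6 CPM in the estrogen libraries and 50.6, 65.5 and 141 CPM in the vehicle libraries. The other 20 members summed to 85.0, 69.0 and 84.1 CPM with estrogen and 47.8, 56.0 and 72.0 CPM with vehicle, and showed no such step.

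**Figure D1:**
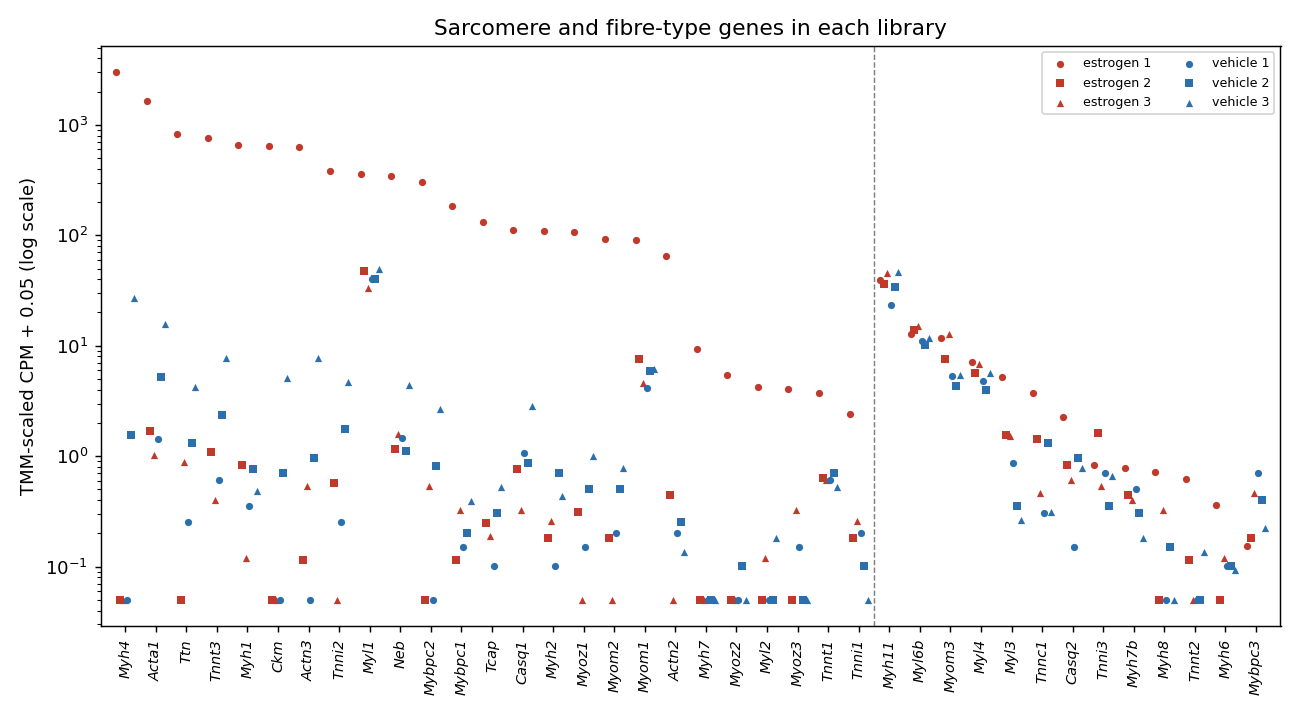
Level of the sarcomere members in each library, as TMM-scaled CPM on a log scale after adding 0.05 CPM so that zeros show; red symbols are estrogen libraries and blue symbols vehicle libraries, and the dashed line separates members at least 5-fold above every other library in estrogen replicate 1 from the rest. For Myh4, estrogen replicate 1 sits at 2988 CPM and the next library, vehicle replicate 3, at 27.3 CPM, while Myl6b and Myh11 show all 6 libraries close together.

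The myosin heavy chains gave the widest range. Myh4, the IIB chain (ENSMUSG00000057003, chr11:67238029-67260446, mm10, plus strand), was at 2988, 0 and 0 CPM in estrogen replicates 1, 2 and 3 and at 0, 1.52 and 27.3 CPM in vehicle replicates 1, 2 and 3. Its groups overlapped fully, because the other estrogen libraries held no read and vehicle replicate 3 held 629 counts. Myh1, the IIX chain next to it on the chromosome (chr11:67200052-67224575), was at 662, 0.786 and 0.070 CPM with estrogen and 0.305, 0.708 and 0.434 CPM with vehicle. Here vehicle replicate 3 was no higher than the rest. Myh2, the IIA chain, was at 110, 0.131 and 0.209 CPM with estrogen and 0.051, 0.658 and 0.390 CPM with vehicle. Myh7, the slow type I chain (chr14:54970684-54994626, minus strand), had 180 counts in estrogen replicate 1 and 0 in the other 5 libraries, at least 44.7-fold higher against a floor of 3 counts per library. The developmental chains of the chromosome 11 cluster were near the floor: Myh3 (embryonic) had 9 counts in all 6 libraries together and Myh8 (perinatal) 19. Reads that these similar genes share may have been split or dropped in counting, which is not stated.

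Within the myosin heavy chain pool, fibre-type shares per kilobase of gene length do not depend on library scaling. In estrogen replicate 1, Myh4 made up 80.5% (Wilson 95% interval 80.2 to 80.7%), Myh1 16.9%, Myh2 2.49% and Myh7 0.175% (0.152 to 0.203%), from 72710 counts. In vehicle replicate 3, Myh4 made up 97.4% (95.9 to 98.3%), Myh1 1.47% (0.798 to 2.68%), Myh2 1.17% and Myh7 0%, where no count in 648 allows up to 0.413%. In vehicle replicate 2 the shares were 55.3% Myh4 (42.6 to 67.4%), 24.5% Myh1 (15.2 to 37.0%) and 20.2% Myh2 (12.1 to 31.8%), from 57 counts. The 3 intervals for Myh4 do not overlap, so its share differed between these libraries beyond counting error, which is the only error covered. Vehicle replicate 3 had less Myh1 than estrogen replicate 1, whereas vehicle replicate 2 had more Myh2, and its Myh1 interval includes the share in estrogen replicate 1. Estrogen replicates 2 and 3 and vehicle replicate 1 held 14, 4 and 7 such counts, none of them Myh4, too few to describe a mix. The fast chains together made up 99.8% in estrogen replicate 1 and 100% of the few counts elsewhere.

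**Figure D2:**
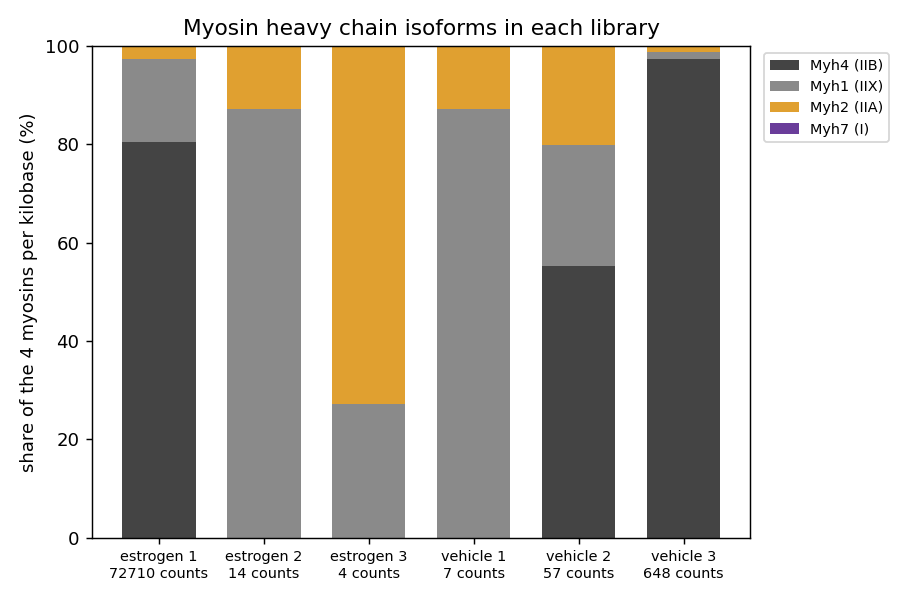
Share of Myh4, Myh1, Myh2 and Myh7 in the sum of these 4 myosin heavy chains in each library, in percent of counts per kilobase, with the number of counts behind each bar. Myh4 takes 80.5% in estrogen replicate 1 and 97.4% in vehicle replicate 3, and 3 bars rest on 14, 4 and 7 counts.

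The light chains divided into muscle and general ones. Myl1, the fast essential light chain, was at 360, 47.1 and 33.3 CPM with estrogen and 40.0, 39.8 and 49.0 CPM with vehicle, so it had a base level in every library, and estrogen replicate 1 was 7.34-fold above the next. Myl3, the slow essential chain (chr9:110741861-110769798), was at 5.13, 1.51 and 1.46 CPM with estrogen and 0.813, 0.304 and 0.217 CPM with vehicle. All 3 estrogen libraries lay above all 3 vehicle libraries, though 4.65% of its exonic bases lie under Pth1r on the opposite strand. Myl6b was at 12.6, 13.8 and 15 CPM with estrogen and 11.1, 10.2 and 11.7 CPM with vehicle, a narrow range in which the groups also did not overlap. Myl7, the atrial regulatory chain, had no count.

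On the thin filament, Acta1 (chr8:123891769-123894751) was at 1636, 1.64 and 0.975 CPM with estrogen and 1.37, 5.21 and 15.5 CPM with vehicle. It was the highest member per kilobase in estrogen replicate 1, at 1065 CPM per kilobase against 497 for Myh4 and 482 for Tnnt3. Tnnt3, the fast troponin T that holds troponin on tropomyosin (chr7:142498836-142516009), was at 764, 1.05 and 0.348 CPM with estrogen and 0.559, 2.33 and 7.77 CPM with vehicle. Tnni2, the fast inhibitory troponin (chr7:142441808-142444410), was at 385, 0.524 and 0 CPM with estrogen and 0.203, 1.72 and 4.64 CPM with vehicle. In these 3 genes vehicle replicate 3 was second highest and vehicle replicate 2 came after it. Tnnc2, the fast calcium-binding troponin, had 1, 1 and 0 counts with estrogen and none with vehicle, although its partners were high in estrogen replicate 1. In the annotation, 592 of its 800 exonic bases (74.0%) are shared with Ube2c on the opposite strand, and its count is uncertain. Whether that overlap lowered it was not tested. The cardiac troponin I gene Tnni3 was low throughout, at 0.778, 1.57 and 0.488 CPM with estrogen and 0.661, 0.304 and 0.607 CPM with vehicle.

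At the Z disc, Actn3, the alpha-actinin of fast fibres (chr19:4861223-4877909), was at 636, 0.065 and 0.488 CPM with estrogen and 0, 0.911 and 7.68 CPM with vehicle. Actn2, the form of all striated fibres, was at 65.0, 0.393 and 0 CPM with estrogen and 0.152, 0.202 and 0.087 CPM with vehicle. Tcap, the titin cap, was at 133, 0.196 and 0.139 CPM with estrogen and 0.051, 0.253 and 0.477 CPM with vehicle. Estrogen replicate 1 was far the highest for each of them, and vehicle replicate 3 came second for Actn3 but not for Actn2. Myoz1, a fast-fibre calcineurin-binding protein, was at 108, 0.262 and 0 CPM with estrogen and 0.102, 0.455 and 0.954 CPM with vehicle.

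Of the long filament proteins, Ttn (titin) was at 829, 0 and 0.836 CPM with estrogen and 0.203, 1.27 and 4.17 CPM with vehicle. Neb (nebulin) was at 342, 1.11 and 1.53 CPM with estrogen and 1.42, 1.06 and 4.34 CPM with vehicle. The fast myosin-binding protein Mybpc2 was at 302, 0 and 0.488 CPM with estrogen and 0, 0.759 and 2.60 CPM with vehicle. Mybpc1, its slow counterpart, which fast fibres also make, was at 183, 0.065 and 0.279 CPM with estrogen and 0.102, 0.152 and 0.347 CPM with vehicle. The M-band genes differed among themselves. Myom1 was at 90.4, 7.60 and 4.53 CPM with estrogen and 4.07, 5.87 and 6.12 CPM with vehicle, whereas Myom3 (chr4:135759715-135815564), the myomesin of slow and intermediate fibres, was at 11.7, 7.60 and 12.6 CPM with estrogen and 5.23, 4.25 and 5.42 CPM with vehicle. Myom3 was thus not highest in estrogen replicate 1, and every estrogen library exceeded every vehicle library.

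Of the energy and calcium members, Ckm, the muscle creatine kinase that buffers ATP (chr7:19404776-19422841), was at 648, 0 and 0 CPM with estrogen and 0, 0.658 and 5.08 CPM with vehicle. Casq1, the fast calsequestrin that stores calcium in the sarcoplasmic reticulum, was at 111, 0.720 and 0.279 CPM with estrogen and 1.02, 0.810 and 2.82 CPM with vehicle. Myh11, the smooth muscle heavy chain that the name rule also takes in, was at 38.9, 36.1 and 45.7 CPM with estrogen and 23.5, 33.9 and 46.9 CPM with vehicle, and so did not follow the striated genes.

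For the comparison of estrogen with vehicle, edgeR's quasi-likelihood F test called 0 of the 22 members that passed the filter, with Benjamini-Hochberg adjusted p between 0.207 and 0.640. It called 0 of all 15591 genes (0.0%), of which 3185 had an unadjusted p under 0.05, among them 9 members. The limma-voom test called 0 genes, and DESeq2 called 854 of 14026 (6.09%), 2 of them members of the 8 to which it gave an adjusted p, Myom3 (0.00908) and Myl3 (0.0224). All 22 members had a positive log2 fold change, with a median of 3.63 against 0.0025 over all genes tested (50.3% positive). That direction rested on estrogen replicate 1. Without it, 10 members were higher and 12 lower, with a median of -0.13 against -0.026 over all genes, and edgeR again called 0 members.

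In single genes, the edgeR log2 fold change of Acta1 was 6.20 ± 2.67 (SE; adjusted p = 0.248), and -2.51 without estrogen replicate 1. For Tnnt3 it was 6.15 ± 2.60 (adjusted p = 0.243), and -2.35 without that library, and for Actn3 6.18 ± 2.83 and -3.40. Myh1 had the largest value of the 22 members, 8.83 ± 2.96, and -0.15 without the library. Myh4 was at 6.69 ± 3.51 and Ckm at 6.78 ± 3.0, and without estrogen replicate 1 both had 0 counts in the remaining estrogen libraries. Groups that do not overlap were found in 3 of the 22 members, Myom3, Myl3 and Myl6b, beside 27.5% of all genes tested. Myom3 stood at 1.10 ± 0.25 (edgeR adjusted p = 0.207) with all libraries and at 1.0 without estrogen replicate 1. Myl3 stood at 2.61 ± 0.72 and 1.73, and Myl6b at 0.33 ± 0.15 and 0.37.

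**Figure D3:**
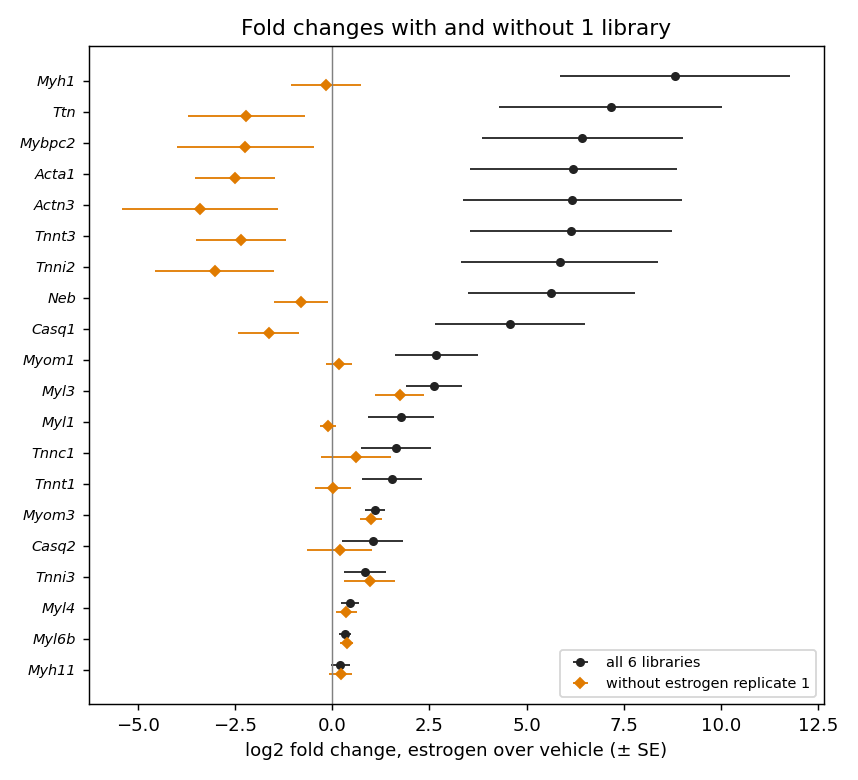
Log2 fold change, estrogen over vehicle, from edgeR with all 6 libraries and without estrogen replicate 1, with bars of 1 standard error. Acta1 moves to -2.51 and Tnnt3 to -2.35 without that library while Myom3 stays at 1.0, and Myh4 and Ckm are left out because the remaining estrogen libraries held no count.

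Fast and slow forms were set against each other within estrogen replicate 1, per kilobase. Troponin I was 99.7% fast (Tnni2 against Tnni1), troponin T 99.7% (99.6 to 99.7%; Tnnt3 against Tnnt1) and the essential light chain 98.6% (Myl1 against Myl3). Calsequestrin was 98.6% fast (98.1 to 99.0%; Casq1 against Casq2), myozenin 97.3% (Myoz1 against Myoz2) and alpha-actinin 92.8% of Actn3 (92.4 to 93.1%). Myosin-binding protein C was the mixed pair, 67.4% fast (66.5 to 68.3%), and troponin C cannot be read, with 1 count of Tnnc2 against 71 of Tnnc1. In vehicle replicate 3 the myosin-binding protein C pair was 90.4% fast (82.0 to 95.1%) and alpha-actinin 99.1% (96.9 to 99.8%), both above estrogen replicate 1 with intervals that do not overlap. The essential light chain was also more fast there, at 99.6% (99.0 to 99.8%) against 98.6% (98.3 to 98.8%) in estrogen replicate 1. The calsequestrin and troponin T pairs were less fast in vehicle replicate 3, also with intervals apart from those of estrogen replicate 1. Calsequestrin was at 84.3% (76.0 to 90.1%) and troponin T at 95.8% (92.6 to 97.6%), with 17 counts of Casq2 and 11 of Tnnt1. Tnnt1 held 8 to 13 counts in each library other than estrogen replicate 1, a level that did not follow the fast genes. Casq2 held 12 and 8 counts in estrogen replicates 2 and 3 and 2, 18 and 17 in vehicle replicates 1, 2 and 3. Its 17 counts in vehicle replicate 3 were thus no more than in vehicle replicate 2.

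Vehicle replicate 3 carried a faint version of the same genes. Of the 25 members past the 5-fold bar, it was the next highest library for 16, and its sum over the 25 was 2.15 times that of vehicle replicate 2. In percent of the level in estrogen replicate 1 (vehicle over estrogen), Actn3 was at 1.21% (exact 95% interval 1.04 to 1.40%), Tnnt3 at 1.02% (0.873 to 1.18%), Acta1 at 0.949% (0.853 to 1.05%), Myh4 at 0.913% (0.843 to 0.988%) and Ckm at 0.783% (0.647 to 0.939%). Higher percentages were found for Myl1 at 13.6% (12.8 to 14.5%), Myom1 at 6.77% (5.66 to 8.04%), Casq1 at 2.53% (1.95 to 3.24%) and Neb at 1.27% (1.03 to 1.55%). Of these, Myl1 and Myom1 had a base level in every library. The percentages differed between genes beyond counting error, and several were well under 1%. Titin was at 0.502% (0.407 to 0.614%), Myh2 at 0.356% (0.163 to 0.678%), Mybpc1 at 0.189% (0.0817 to 0.374%) and Myh1 at 0.0655% (0.0314 to 0.121%). In vehicle replicate 2, Acta1 was at 0.318%, Tnnt3 at 0.305% and Myh4 at 0.0508% (0.0343 to 0.0725%) of estrogen replicate 1.

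**Figure D4:**
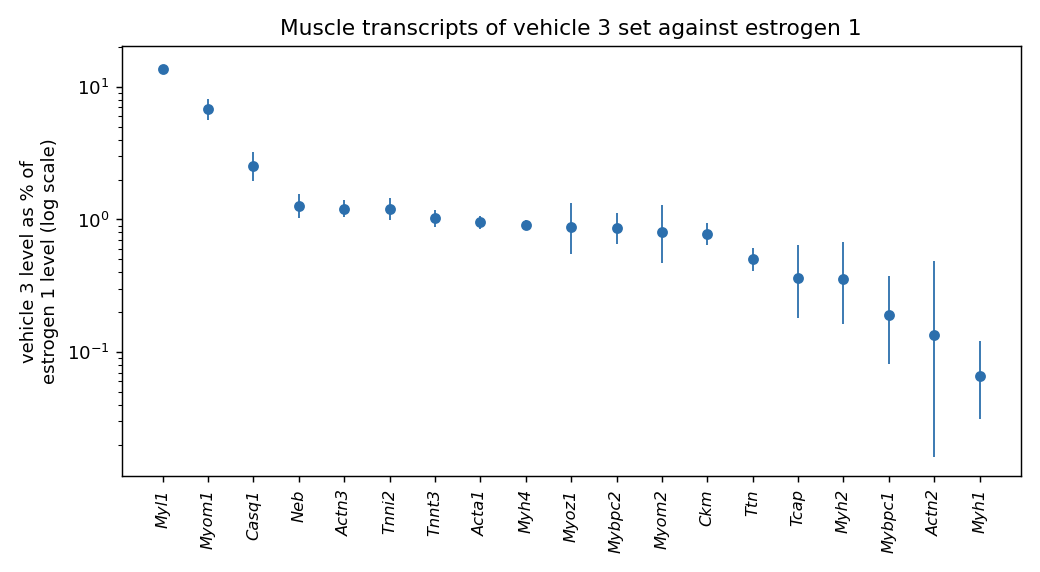
Level of members in vehicle replicate 3 as a percent of their level in estrogen replicate 1 (vehicle over estrogen, log scale), with exact 95% intervals that cover counting error only. Myl1 and Myom1 lie highest, at 13.6% and 6.77%, Actn3, Tnnt3, Acta1 and Myh4 lie near 1%, and Mybpc1 and Myh1 lie at 0.189% and 0.0655%.

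Many genes outside the name rule that serve the same fibres were high in estrogen replicate 1 as well, but not in every list. Of 13 excitation-contraction genes, which turn a nerve signal into calcium release, 10 were at least 5-fold above every other library there. The counts were 26 of 34 other sarcomere and Z-disc genes and 7 of 12 muscle energy genes. Among those that passed the low-count filter, the counts were 6 of 9, 10 of 17 and 3 of 8 in the same order, beside 0.468% of all genes that passed. Neuromuscular junction genes shared the step less, with 2 of 10 past the bar and 0 of the 3 that passed the filter. Atp2a1, the fast sarcoplasmic calcium pump, was at 1873, 0.131 and 0.975 CPM with estrogen and 0.152, 1.97 and 11.1 CPM with vehicle. Pvalb, the calcium buffer parvalbumin of the fastest fibres, was at 396, 0 and 0 CPM with estrogen and 0, 0.658 and 3.86 CPM with vehicle. The slow calcium pump Atp2a2, which many tissues use, was level, at 245, 259 and 237 CPM with estrogen and 264, 273 and 252 CPM with vehicle. Of the 5 slow-fibre partners outside the name rule, 1 passed the bar, and 0 of the 2 that passed the filter. Mb, the oxygen carrier myoglobin, was at 60.5, 0.393 and 0.627 CPM with estrogen and 0.102, 0 and 0.043 CPM with vehicle. Sln, a calcium pump regulator, had 16 counts in estrogen replicate 1 and 0 elsewhere, under the bar. Tpm3 was at 149, 169 and 126 CPM with estrogen and 248, 221 and 181 CPM with vehicle. Pln had 6, 4 and 4 counts with estrogen and 3, 0 and 4 with vehicle. Of 14 myogenic transcription factors, Myf6, the factor of mature fibres, passed the bar with 100 counts in estrogen replicate 1 and 0 elsewhere. Myod1 had 17, Pax7 4 and Myog 3 counts there and 0 in every other library. By edgeR, 0 genes were called in any of the 16 lists set beside the members.

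Profiles most like the summed sarcomere level were ranked by Euclidean distance of centred log2 CPM over the 6 libraries, among 12309 other protein-coding genes. The nearest 10 were Pygm (0.959), Pdlim3 (1.03), Mylpf (1.18), Pgam2 (1.21), Eno3 (1.47), Cmya5 (1.48), Eef1a2 (1.54), Ryr1 (1.62), Nrap (1.77) and Ldb3 (1.86), where the sarcomere sum itself spans 6.74 log2 units. All of them but Eef1a2 belong to the muscle lists, and 19 of the nearest 50 do, of 42 list genes among the candidates. With 6 libraries and 1 of them far above the rest, the ranking mainly finds genes high in that library.

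The lists of markers of other tissues did not as a whole share the step of the sarcomere genes in estrogen replicate 1, though a few of their genes did. The lists do not cover every cell type. Of the 73 genes that passed both the filter and the bar, 39 were neither members nor in any list. No list held T-cell genes such as Lck, at 17.7, 1.44 and 2.79 CPM with estrogen and 0.711, 1.11 and 1.74 CPM with vehicle. Smooth muscle markers summed to 1047, 497 and 307 CPM with estrogen and 483, 672 and 694 CPM with vehicle, and 2 of 13 passed the bar, among them Des, the intermediate filament that striated muscle also uses. Lymph node and B-cell markers summed to 224, 18.0 and 174 CPM with estrogen and 35.7, 11.9 and 31.9 CPM with vehicle, so estrogen replicates 1 and 3 were both high. Of these, estrogen replicate 3 held a sarcomere sum of only 129 CPM. In the lymph node list, 1 of 11 entries passed the bar, an entry of Ccl21a with 191 counts in estrogen replicate 1. Brown and beige thermogenic genes summed to 1579, 3542 and 577 CPM with estrogen and 1875, 1343 and 889 CPM with vehicle, placing estrogen replicate 1 inside the range of the others. Fibroblast and progenitor markers summed to 5891, 8736 and 1382 CPM with estrogen and 15769, 35665 and 12618 CPM with vehicle. Each estrogen sum was thus under each vehicle sum, whatever the sarcomere level. Col3a1 and Col1a1 made up much of these sums, at 18902 and 11338 CPM in vehicle replicate 2. Dcn overlapped, at 726 CPM in estrogen replicate 1 and 675 CPM in vehicle replicate 1. Among all genes tested, 27.5% had groups that do not overlap. Peripheral nerve markers were level, at 306, 300.1 and 368 CPM with estrogen and 275, 317 and 318 CPM with vehicle. Where the muscle RNA of estrogen replicate 1 came from was not tested.

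**Figure D5:**
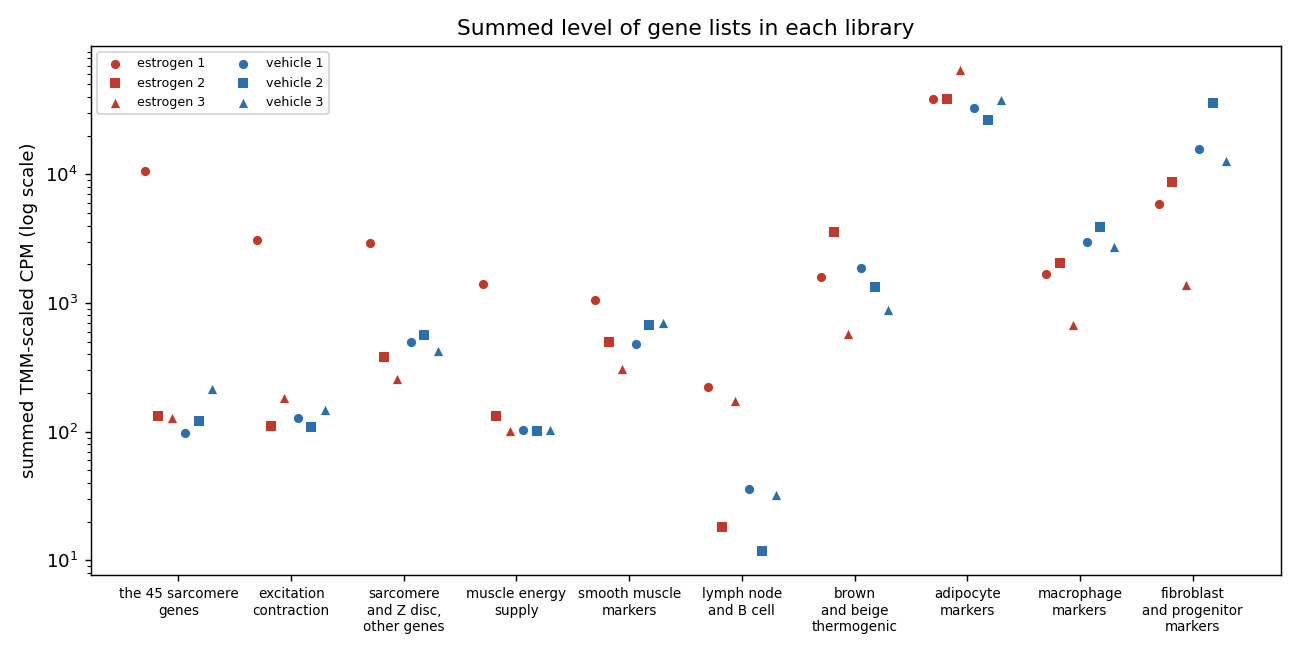
Summed TMM-scaled CPM of the sarcomere members and of gene lists for other muscle functions and other cell types in each library, on a log scale, with estrogen libraries in red and vehicle libraries in blue. Estrogen replicate 1 lies far above the rest for the sarcomere, excitation-contraction and muscle energy lists and inside the range of the others for the adipocyte and thermogenic lists.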

How the data were processed

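Gene counts came from total RNA of 3 estrogen and 3 vehicle libraries. The table that the authors deposited holds raw counts of reads for each gene without normalization, made with HISAT2 and featureCounts on mm10, per the submitters' processing notes. The sources used here do not give the strand setting, the treatment of shared reads or the annotation release. Groups and replicate numbers follow the sample titles, and 0 columns belonged to other samples. The labels do not tie libraries to separate animals, so the p-values reflect only how these samples vary, and that variation may be technical. No pair within a group agreed within sampling noise (chi-square per degree of freedom 41.7 to 88.6).

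The members and gene lists were chosen with earlier results of these data known. Counts were scaled with TMM factors, filtered with filterByExpr and tested over all 15591 genes by edgeR 4.0.16 (quasi-likelihood F test, Benjamini-Hochberg threshold 0.05, no replicate block) in R 4.3.3. DESeq2 1.42.0, limma 3.58.1 (voom), other scalings, no filter, a block and leaving out libraries were alternatives. The test was run on simulated data with the spread between replicates capped and no single library standing apart. That check does not cover a pattern like the one described here. Shares are per kilobase of the deposited gene length with Wilson intervals, and intervals and floors cover counting error only. All members could be named. The 12 with the highest mean per kilobase were given in every library. Other genes were named by the 10 nearest profiles (mean log2 CPM at least 1, 0.5 added before the log) or as examples from the lists. Those examples were not always the highest of their list, and some, such as Myf6 and Myod1, were picked with their levels known. Lck was named from outside the lists, also with its levels known. Gene overlaps came from GENCODE M21, in which all 45 members were found.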

Additional observations from a re-analysis of the deposited data

How the results depend on the processing

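For single genes, 144 alternative values kept their direction and did not newly pass the threshold, 15 changed sign and 2 passed the threshold. The 144 include DESeq2 values without an adjusted p, such as those of Acta1, Myh4 and Myh1, for which only the direction can be compared. The limma-voom values are not in this tally of single genes. For summary values, 108 stayed within the replicate spread or within 1.5 times the count and 3 did not. That spread is wide: the estrogen mean of the summed sarcomere level was 130 CPM without estrogen replicate 1, under the vehicle mean of 144 CPM, against 3606 CPM with all libraries. The number of genes called was 0 with edgeR and 854 with DESeq2, and 0 to 13 when each library was left out in turn, the 13 without estrogen replicate 2. DESeq2 called 2 members, Myom3 at 1.10 and Myl3 at 2.62. The limma-voom log2 fold changes were smaller for genes carried by estrogen replicate 1. Acta1 was at 1.90, Myh4 at 1.07, Ckm at 1.46 and Myh1 at 3.50, against 6.20, 6.69, 6.78 and 8.83 by edgeR. For Myom3 and Myl3, limma-voom gave 1.07 and 2.60, near the edgeR values. Leaving out each library in turn gave log2 fold changes of -2.51 to 7.37 for Acta1, -2.35 to 7.46 for Tnnt3, -3.03 to 7.05 for Tnni2, -3.40 to 8.84 for Actn3, -2.24 to 8.03 for Mybpc2, -1.63 to 5.35 for Casq1, -0.15 to 9.41 for Myh1, -0.10 to 2.24 for Myl1 and -0.0085 to 0.48 for Myh11. Each lowest value was without estrogen replicate 1, except for Myh11, whose lowest was without vehicle replicate 1. Fold changes of Myh4 and Ckm without estrogen replicate 1 are not given, because the remaining estrogen libraries held no count and a fitted value then depends on the prior count. Without both estrogen replicate 1 and vehicle replicate 3, chosen after seeing the data, 17 members passed the filter, 11 higher and 6 lower, 0 were called, and Acta1 was at -1.30, Tnnt3 at -1.0, Myh1 at -0.20, Casq1 at -0.83 and Myh11 at 0.53.

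With the replicate number as a block, 0 genes were called, and Acta1 was at -0.50 and Myh4 at -1.97. The other members that passed the filter stayed positive, from 0.24 for Tnnt3 to 4.46 for Myh1. Same-numbered libraries deviated together with correlations of -0.12, 0.16 and 0.29, and differently numbered ones with -0.36 to 0.17. With 3 libraries a group, this check cannot decide whether the number pairs them. The block numbers are title numbers, and the libraries titled replicate 2 in the 2 groups carry different numbers in the deposited table. The limits are 3 libraries a group, a muscle signal carried by 1 of them, and striated-muscle counts so low in estrogen replicates 2 and 3 and vehicle replicate 1 that their myosin mix could not be read.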
